A study of Canis lupus familiaris with 51 samples.

Results

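The enzymes that make prostaglandins and leukotrienes were followed across 51 canine cutaneous mast cell tumors (MCTs). The genes asked for were PTGS1, PTGS2, HPGDS, PTGDS, PTGES, ALOX5, ALOX5AP, LTC4S, LTA4H and PLA2G4A, and every array probe carrying one of these names was taken. The array held 15 such probes among its 43603, and they covered 9 of the 10 genes, of 10967 genes named on the array. HPGDS was listed under the locus name LOC478481 and was matched through its gene identifier, and no probe carried LTC4S, the gene of leukotriene C4 synthase. Where a gene had several probes, the brightest over the 51 arrays stood for it, and the others are given beside it for the comparison over all tumors.

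Each sample was the central part of 1 spontaneous tumor from 1 dog, its RNA labeled with Cy3 and hybridized to 1 Agilent canine array. The study named 18 tumors as reference samples from histological grade and mitotic index, 5 undifferentiated and 13 differentiated. Its class prediction then placed the other 33 tumors, 7 as undifferentiated and 26 as differentiated, from array values of these same tumors. The dogs were of many breeds, 3 to 14 years old, 30 labeled female and 19 male, and all tumors were of the skin, with no normal skin and no cultured mast cells among the samples. The tumor labeled LM0 was matched to its class by elimination, and no gene of the 9 crossed an adjusted p of 0.05 or 0.01 when it was left out of the class or the reference comparison.

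Arachidonic acid is cut from membranes by cytosolic phospholipase A2, the product of PLA2G4A, and then enters one of several branches. The cyclooxygenases, constitutive PTGS1 and inducible PTGS2, turn it into prostaglandin H, from which HPGDS (the hematopoietic enzyme) and PTGDS (the lipocalin-type enzyme) make prostaglandin D and PTGES makes prostaglandin E. In the other branch 5-lipoxygenase, the product of ALOX5, works with its activating protein ALOX5AP to make leukotriene A, which LTA4H converts to leukotriene B and LTC4S to the cysteinyl leukotrienes. Prostaglandin D and the cysteinyl leukotrienes are classical products of activated mast cells.

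A probe reads one short stretch of its transcript, and 4 stretches within coding sequence are shown here as the array files give them, 5′ to 3′. The PTGDS and ALOX5 probes are those that stood for their genes, and the PTGDS one was called between the classes. It lay at 9:51980563-51981398, spanned an intron and ended just past the stop codon, in capitals, and its bases after that codon are left out. The ALOX5 probe at 28:5170030-5170089 ended on the stop codon, also in capitals. The second PTGS1 probe at 9:63537391-63537450 and the second PLA2G4A probe at 7:22872884-22879055, the latter across an intron, were the dimmer readings of their genes beside the probes that stood for them. The dog genome build of these coordinates was not named in the files.
PTGDS: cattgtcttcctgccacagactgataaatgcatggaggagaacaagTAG
ALOX5: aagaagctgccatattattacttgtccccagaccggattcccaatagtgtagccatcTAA
PTGS1: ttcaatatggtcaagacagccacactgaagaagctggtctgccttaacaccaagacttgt
PLA2G4A: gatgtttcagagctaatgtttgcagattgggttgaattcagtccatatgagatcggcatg

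The arrays came from 15 slides scanned in 9 sessions, and between 59.4% and 74.8% of the spots of an array were well above background. No 2 arrays held identical values. Levels are log2 quantile-normalized signals, so a difference of 1 is a 2-fold change, and their precision is limited by how many arrays there are. Of the mast cell markers, 6 of 12 had a probe (KIT, CMA1, MS4A2, FCER1A, SLC18A2 and ENPP3) and all 6 were well above background on every array. The mean of these 6 ranged from 12.20 to 15.80 in undifferentiated and from 13.20 to 15.68 in differentiated MCTs.

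All 9 genes were read well above background in every tumor, but they varied to very different extents. PTGS2 ranged from 7.15 in tumor T64 to 15.48 in tumor T114, a 321-fold span, and its SD of 1.73 exceeded that of 96.9% of the 29918 probes detected on at least 26 arrays. PTGDS ranged from 5.61 to 11.93, a 79.9-fold span, with an SD in the 94.2th percentile. ALOX5 ranged from 8.71 to 13.99 and PTGS1 from 10.32 to 15.41, spans of 38.9-fold and 34.1-fold. HPGDS spanned 19.5-fold, from 10.37 to 14.66, ALOX5AP 19.5-fold, from 12.22 to 16.51, PTGES 16.6-fold, from 11.21 to 15.26, and PLA2G4A 14.1-fold, from 8.11 to 11.93. LTA4H was the steady member, with a span of 3.58-fold between 11.74 and 13.58 and an SD of 0.30, in the 17.4th percentile.

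**Figure D1:**
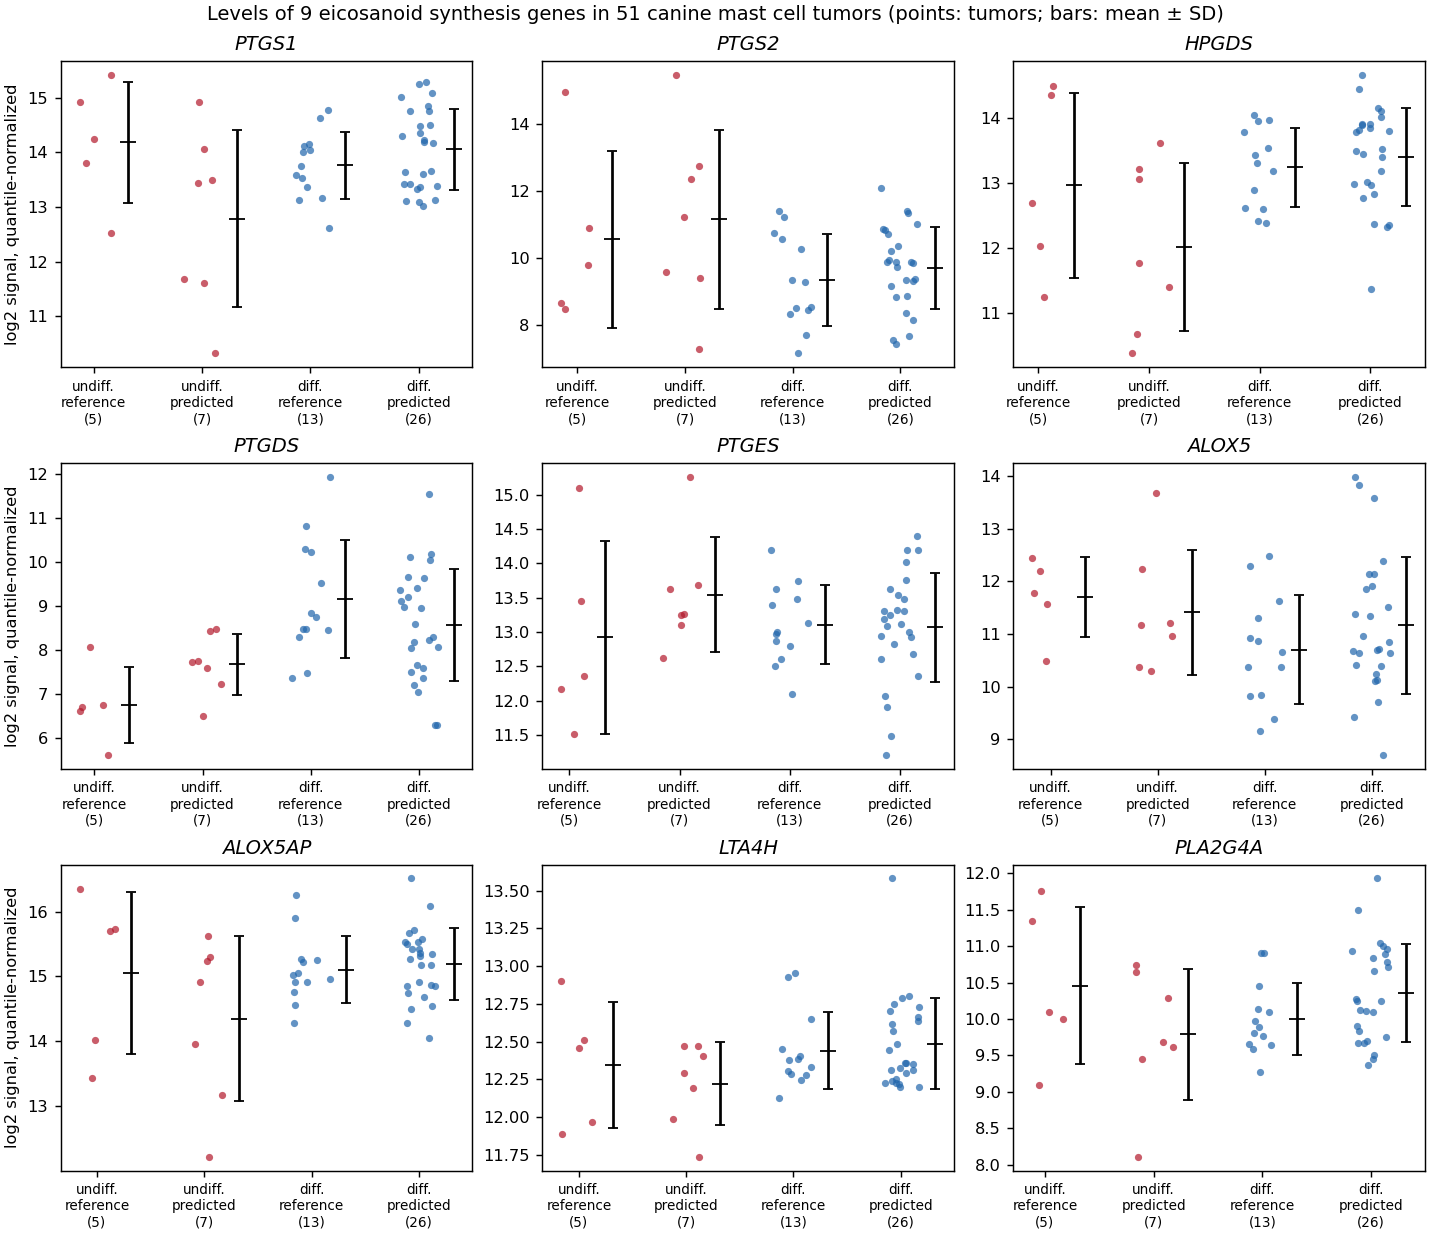
Levels of the 9 enzyme genes (log2 quantile-normalized signal, vertical axes, each with its own scale) in the 4 groups of MCTs. Each point is 1 tumor, and bars give the mean ± SD. PTGDS lies low in both undifferentiated groups, all 12 of these tumors being under the differentiated median of 8.58, while PTGS2 spreads most among undifferentiated MCTs, from 7.29 to 15.48.

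Where a gene had several probes, these ordered the tumors alike. Across the 51 arrays the 2 PTGS1 probes correlated with r = 0.98, the 2 PLA2G4A probes with r = 0.91 and the 3 LTA4H probes with r between 0.77 and 0.83. The 2 PTGES probes correlated with r = 0.997, but they overlap on the transcript and are hardly separate readings. The second PTGDS probe lay on the opposite strand of a nearby stretch, was well above background on 12 of 51 arrays, and correlated with the first with r = 0.75.

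The first question was whether the enzymes differed between the 12 undifferentiated and the 39 differentiated MCTs. PTGDS was lower in undifferentiated MCTs by a log2 fold change of -1.47 (SE 0.40, 95% interval -2.27 to -0.67), which is 2.77-fold, and it was the 1 gene of 9 that passed both thresholds in limma, a fold of 2 and an adjusted p below 0.01 (adjusted p = 0.00731). Of all 43603 probes, 2.41% passed them, so a single call among 9 says little about the family as a whole. HPGDS was lower by 0.93 on average, a log2 fold change of -0.93 (SE 0.29, adjusted p = 0.0224), and together with PTGDS made 2 of 9 past an adjusted p of 0.05, where 14.7% of all probes stood. Of the 9 genes 3 had a higher and 6 a lower mean, with a median log2 fold change of -0.20, beside -0.01 over all probes. In bulk tumor RNA, fewer cells of a type and less of a transcript per cell cannot be told apart.

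PTGDS makes prostaglandin D in brain and connective tissue and also carries small lipophilic molecules. Its level averaged 7.28 ± 0.87 (SD) over the 12 undifferentiated MCTs, while the 39 differentiated ones averaged 8.75 ± 1.31 (SD). The undifferentiated reference tumors T9, T57, T73, T90 and LM0 read 5.61, 6.60, 6.74, 6.69 and 8.05. The undifferentiated tumors T132, T115, T114, T104, T80, T77 and T49 of the predicted set read 6.49, 8.43, 7.59, 7.23, 7.74, 8.46 and 7.72. None of the 12 exceeded the differentiated median of 8.58, and T9 alone lay under the lowest differentiated tumor, so the groups overlapped widely at the low end. The second probe of the gene was well above background on 1 of 12 undifferentiated and 11 of 39 differentiated arrays. Its log2 fold change of -0.84 thus rests on values near the floor and is not used.

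The PTGDS difference had the same direction within each batch that held both classes. Undifferentiated tumors were lower in 7 of 7 scan sessions, by -3.12 to -0.93, and on 10 of 10 slides, by -3.67 to -0.72. Most of these batches held only 1 undifferentiated tumor, and 1 session held 1 tumor of each class. Each slide lay within 1 session, so the 2 counts overlap and are not separate replications. The call itself was narrow, for leaving out T9, T57, T73, T90, T104, T114 or T132 brought the adjusted p to between 0.0107 and 0.0193, and without LM0 the change was -1.54 (adjusted p = 0.00819 in limma). Across the 51 tumors PTGDS correlated with the mean of 6 fibroblast markers (r = 0.38, Spearman's rho = 0.33, adjusted permutation p = 0.0204 and 0.0415 over 9 genes), a relation not past the threshold without the 2 most extreme tumors. Within the 39 differentiated MCTs 0 of 9 genes rose with this mean past the threshold. Within the 12 undifferentiated ones 1 did by r, PTGES, so the PTGDS relation passed in neither class. The fibroblast mean was 14.69 ± 0.82 (13.05 to 15.70) in undifferentiated and 14.89 ± 0.75 (12.78 to 15.96) in differentiated MCTs. In limma 0 of 6 fibroblast genes were called, beside 2.41% of all probes. At an adjusted p under 0.05, 1 of 6 was lower, beside 7.04% of all probes. The part of fibroblasts in the PTGDS difference was not tested.

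HPGDS is the prostaglandin D synthase of mast cells and other blood-derived cells. Undifferentiated MCTs averaged 12.41 ± 1.37 (SD, n = 12) for HPGDS, and differentiated MCTs averaged 13.34 ± 0.71 (SD, n = 39). The reference tumors T9, T57, T73, T90 and LM0 read 14.49, 11.24, 14.34, 12.69 and 12.03, and T132, T115, T114, T104, T80, T77 and T49 read 13.61, 13.06, 10.37, 13.21, 11.77, 11.40 and 10.67. The undifferentiated tumors thus held both the lowest HPGDS levels of the series and, in T9 and T73, levels that ranked 2 and 4 from the top. Of the 12, 3 lay above the differentiated median and 3 below the lowest differentiated tumor. Leaving out T9 or T73 raised the size of the change to -1.12 (adjusted p = 0.00446) and -1.11 (adjusted p = 0.00562), past both thresholds in limma, leaving out T114 lowered it to -0.75 (adjusted p = 0.0805), and without LM0 it was -0.90 (adjusted p = 0.0421). Within scan sessions HPGDS was lower in 6 of 7, and on slides in 5 of 10.

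**Figure D2:**
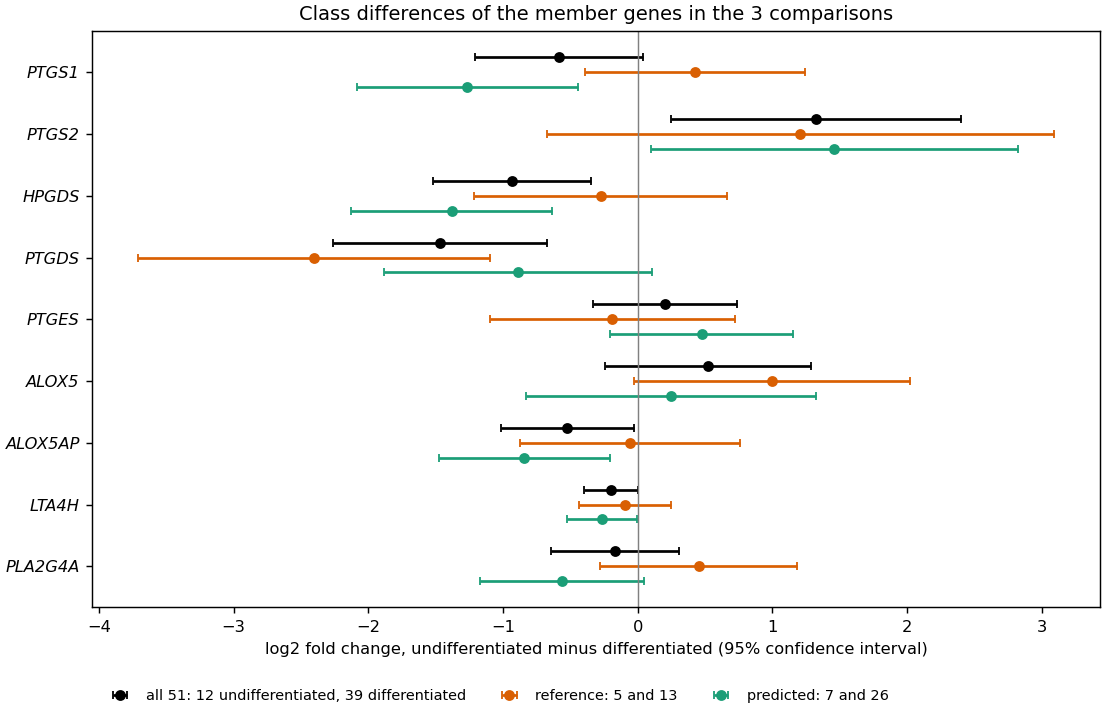
Log2 fold changes of the 9 enzyme genes, undifferentiated minus differentiated MCTs, with 95% intervals from limma, for all 51 tumors, the 18 reference tumors and the 33 predicted tumors. PTGDS lies below 0 in each comparison, at -1.47, -2.40 and -0.89, although its interval in the predicted tumors reaches 0.11.

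PTGS2, the inducible cyclooxygenase, had a mean of 10.91 ± 2.56 (SD) over 12 undifferentiated MCTs, set against 9.58 ± 1.28 (SD) over 39 differentiated ones. The difference, a log2 fold change of 1.33 (SE 0.54, 95% interval 0.25 to 2.40), missed the threshold (adjusted p = 0.0891 in limma). T9, T57, T73, T90 and LM0 read 9.78, 14.97, 10.90, 8.47 and 8.67, while T132, T115, T114, T104, T80, T77 and T49 read 12.36, 9.59, 15.48, 11.23, 9.39, 7.29 and 12.74. Thus 4 of 12 undifferentiated MCTs (T114, T57, T49 and T132) stood above every differentiated tumor, and T77 had the second lowest level of all 51. A single tumor moved the estimate in either direction. Without T114 it was 0.91 (adjusted p = 0.278), without T77 it was 1.66 (adjusted p = 0.0252), and without LM0 1.53 (adjusted p = 0.0569 in limma).

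PTGES, the microsomal prostaglandin E synthase that often acts after PTGS2, did not separate the classes, whose means were 13.28 ± 1.10 (SD, n = 12, undifferentiated) and 13.08 ± 0.72 (SD, n = 39, differentiated). The difference of 0.20 on the log2 scale had a 95% interval of -0.33 to 0.74 and became 0.02 without T114. The second PTGES probe, which overlaps the first, gave 0.18 over all tumors. T9, T57, T73, T90 and LM0 read 12.36, 15.10, 11.52, 12.17 and 13.45, and T132, T115, T114, T104, T80, T77 and T49 read 13.27, 13.10, 15.26, 13.25, 13.68, 12.62 and 13.63. The highest values were those of T114 and T57, above the differentiated maximum of 14.39.

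PTGS1, the constitutive cyclooxygenase, read 13.37 ± 1.55 (SD) on average in the 12 undifferentiated tumors, and 13.95 ± 0.71 (SD) in the 39 differentiated ones. Its log2 fold change was -0.58 (SE 0.31, adjusted p = 0.23 in limma), and the second probe gave -0.52. T9, T57, T73, T90 and LM0 read 14.24, 12.53, 14.92, 15.41 and 13.81, and T132, T115, T114, T104, T80, T77 and T49 read 11.61, 13.50, 11.67, 14.06, 13.44, 10.32 and 14.91. Both ends of the series were undifferentiated tumors, T90 the highest and T77 the lowest of 51, and 4 of 12 lay below all differentiated MCTs. PLA2G4A, which supplies the arachidonic acid, averaged 10.07 ± 0.99 (SD) in the 12 and 10.24 ± 0.63 (SD) in the 39. The PLA2G4A log2 fold change was -0.17, with a 95% interval of -0.64 to 0.31, and T77 was again the lowest of 51 at 8.11. Leaving out T77 alone brought the PLA2G4A change to 0.01. The second PLA2G4A probe gave -0.41 over all tumors (adjusted p = 0.27 in limma).

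In the leukotriene branch no gene passed the test. ALOX5 averaged 11.54 ± 0.998 (SD) in the 12 undifferentiated tumors, while the 39 differentiated ones averaged 11.01 ± 1.22 (SD), a log2 fold change of 0.52 (SE 0.38, adjusted p = 0.424 in limma), with 9 of 12 above the differentiated median. Its activating protein ALOX5AP had the opposite sign, 14.64 ± 1.26 against 15.16 ± 0.54 and a log2 fold change of -0.52 (SE 0.25, adjusted p = 0.162), and 5 of 12 tumors lay below every differentiated one. LTA4H was lower by little, with a log2 fold change of -0.20 (SE 0.10, adjusted p = 0.193), and its 2 other probes gave -0.25 and -0.20. The 95% interval for LTA4H ran from -0.40 to 0.00.

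The undifferentiated tumors did not share a single enzyme profile. Against the differentiated median, T114 stood 5.73 higher in PTGS2 and 2.15 higher in PTGES, but -3.08 in HPGDS, -2.34 in PTGS1 and -2.01 in ALOX5AP. T57 had the same pattern, at 5.23 and 1.99 for PTGS2 and PTGES and at -2.21, -1.48 and -1.16 for HPGDS, PTGS1 and ALOX5AP. These 2 tumors ranked first and second of 51 for both PTGS2 and PTGES. The mean of 4 neutrophil markers (S100A8, S100A9, CSF3R and CXCR2) was also highest in them, at 13.91 and 14.23, and the mast cell mean of T114 was the lowest of the series at 12.20. What part these cells have in the enzyme levels was not tested.

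T77 had the lowest PTGS1, ALOX5AP and PLA2G4A of all 51 tumors, 3.69, 2.95 and 2.0 below the differentiated median. Its PTGS2 was 2.45 below, and its mast cell mean of 12.99 was the second lowest of the series. T9 and T90 stood apart from these, with PLA2G4A 1.65 and 1.24 above the median and ALOX5AP 0.56 and 1.17 above, and with PTGDS -2.97 and -1.89. In T49, ALOX5 stood 2.97 above the median and HPGDS at -2.77.

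**Figure D3:**
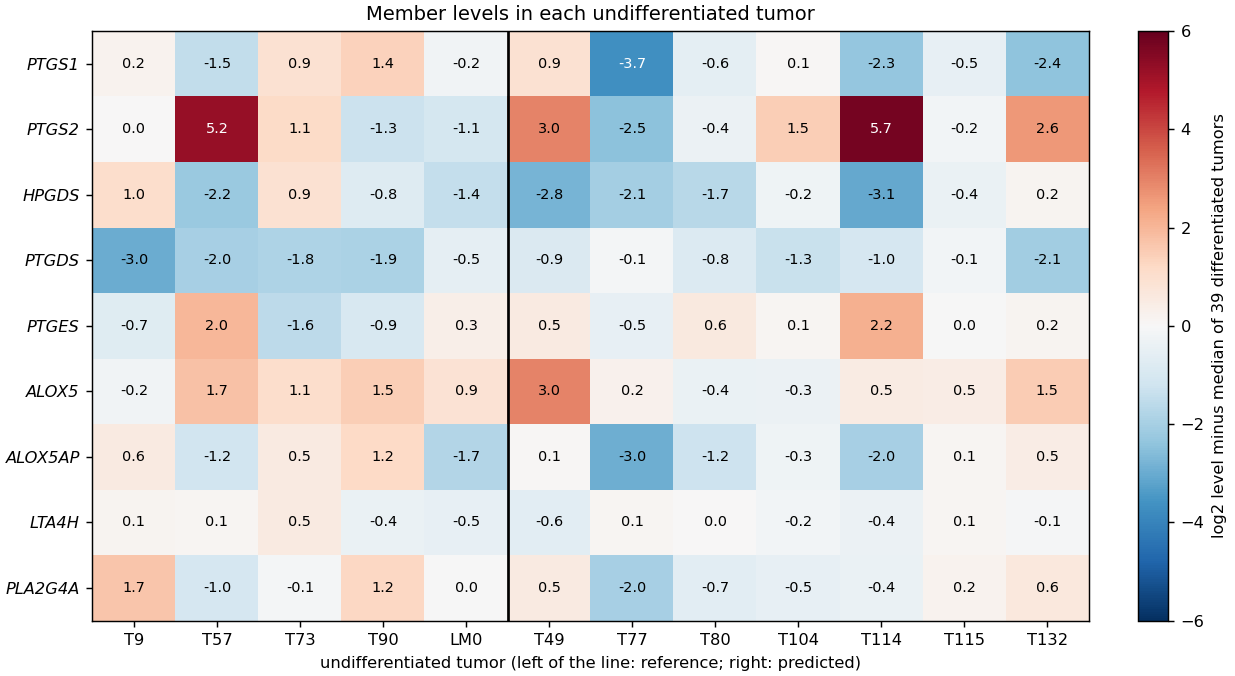
Heat map of the 12 undifferentiated MCTs (columns) and 9 enzyme genes (rows), each cell giving the level minus the median of the 39 differentiated MCTs on the log2 scale. PTGDS is negative in all 12 columns, PTGS2 reaches 5.73 in T114 and 5.23 in T57, and T77 is low in PTGS1, ALOX5AP and PLA2G4A.

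The 18 reference tumors, whose classes come from histology alone, gave 0 of 9 genes called in limma, where 1.85% of all probes were, and 1 of 9 at an unadjusted p under 0.05, where 23.5% of all probes stood. That gene was PTGDS, also the 1 of 9 at an adjusted p under 0.05, beside 8.07% of all probes. It averaged 6.74 ± 0.87 (SD) in the 5 undifferentiated reference tumors, set against 9.14 ± 1.34 (SD) in the 13 differentiated ones. Its log2 fold change of -2.40 (SE 0.62, adjusted p = 0.0242 in limma) is 5.29-fold, and 4 of the 5 undifferentiated tumors lay below the lowest differentiated one at 7.36, LM0 being the exception. Without T9 the change was -2.12 (adjusted p = 0.0718) and without LM0 -2.73 (adjusted p = 0.0245 in limma). In this comparison the fibroblast markers had a median log2 fold change of -0.91, beside 0.04 over all probes, and 0 of 6 were called. Keratinocyte, macrophage, T cell, endothelium and adipocyte markers were also negative, at -2.28, -0.42, -0.22, -0.04 and -0.04. Eosinophil, mast cell and neutrophil markers were positive, at 0.05, 0.21 and 2.84. The part of these cells in the PTGDS difference was not tested. ALOX5 had a log2 fold change of 0.999 (SE 0.49, adjusted p = 0.227), from 10.70 ± 1.03 to 11.70 ± 0.75, with 4 of 5 above the differentiated median. ALOX5AP was at -0.06 and turned to 0.34 without LM0 (adjusted p = 0.946 and 0.63). HPGDS, PTGS1 and PLA2G4A had differences of -0.28, 0.42 and 0.45 (adjusted p = 0.757, 0.548 and 0.465 in limma).

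In the 33 predicted tumors 0 of 9 genes were called in limma, against 1% of all probes, and 5 of 9 had an unadjusted p under 0.05, beside 19.4% of all probes. HPGDS had the lowest adjusted p and was the 1 of 9 under 0.05, where 5.86% of all probes stood, with means of 12.01 ± 1.29 (SD) in the 7 undifferentiated tumors and 13.40 ± 0.76 (SD) in the 26 differentiated ones, a log2 fold change of -1.38 (SE 0.37, adjusted p = 0.0206). Without T132 it was -1.65 (adjusted p = 0.00856) and without T117 -1.46 (adjusted p = 0.00832), both past the thresholds, and without T114 -1.11 (adjusted p = 0.115). PTGS1 followed at -1.26 (SE 0.40, adjusted p = 0.0583) and ALOX5AP at -0.84 (SE 0.31, adjusted p = 0.108). PTGDS, at -0.89 (SE 0.49, adjusted p = 0.333), had the same sign as among the reference tumors and missed the threshold.

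Whether the class difference itself differed between reference and predicted tumors was tested as an interaction over the 51 arrays. None of the 9 genes passed an adjusted p of 0.05 in limma, as 0.0963% of all probes did, nor one of 0.01, as 0.00917% did, and 2 of 9 had an unadjusted p under 0.05, beside 13.7% of all probes. These were PTGS1, whose class difference was 1.69 higher among the reference tumors (SE 0.60, adjusted p = 0.217), and PLA2G4A, 1.01 higher (SE 0.47, adjusted p = 0.33). The PTGDS difference was 1.51 more negative among the reference tumors, an interaction of -1.51 (SE 0.80, adjusted p = 0.392).

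Mast cell RNA may make up a varying part of a bulk tumor, so each enzyme was set against the mean of the 6 mast cell markers. Over the 51 tumors HPGDS (r = 0.76), ALOX5AP (r = 0.74), PLA2G4A (r = 0.74) and PTGS1 (r = 0.72) rose with it, each with a Spearman's rho between 0.72 and 0.80 and a permutation p of 1e-05, the smallest that 100000 permutations can give. PTGES correlated negatively (r = -0.41, rho = -0.26, adjusted permutation p = 0.00576 and 0.0798 over the 9 genes), while PTGS2, PTGDS, ALOX5 and LTA4H had r between -0.15 and 0.07. Without the 2 tumors farthest from the median of the list, r was 0.68 for HPGDS, 0.65 for ALOX5AP, 0.75 for PLA2G4A, 0.63 for PTGS1 and -0.34 for PTGES. The share of all probes that follow this mean as closely was not computed, so the relations are not shown to be particular to these enzymes.

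The same 4 genes rose with the mast cell mean inside each class. In the 39 differentiated MCTs r was 0.87 for HPGDS, 0.74 for PTGS1, 0.70 for PLA2G4A and 0.50 for ALOX5AP, and PTGS2 joined them at 0.44 (adjusted permutation p = 0.00855). In the 12 undifferentiated MCTs r was 0.89 for ALOX5AP, 0.78 for PLA2G4A, 0.68 for PTGS1, 0.64 for HPGDS and -0.67 for PTGES, and by rho 2 of these 5, ALOX5AP and PLA2G4A, passed an adjusted permutation p of 0.05. In the 6 scan sessions with 7 or 8 arrays the 4 positive relations held their sign in 6 of 6, with median r from 0.81 to 0.90, whereas PTGES was negative in 4 of 6. The lowest r within a session was 0.04 for HPGDS, 0.37 for PTGS1, 0.51 for ALOX5AP and 0.69 for PLA2G4A. With the mast cell mean as a covariate, an alternative chosen after seeing the data, the class difference was -0.56 for HPGDS (adjusted p = 0.0525), -0.21 for PTGS1, -0.22 for ALOX5AP and -1.68 for PTGDS (adjusted p = 0.00182 in limma). The covariate is itself made of transcripts, so this fit cannot tell fewer mast cells from less transcript per cell. The cause of these differences was not tested.

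**Figure D4:**
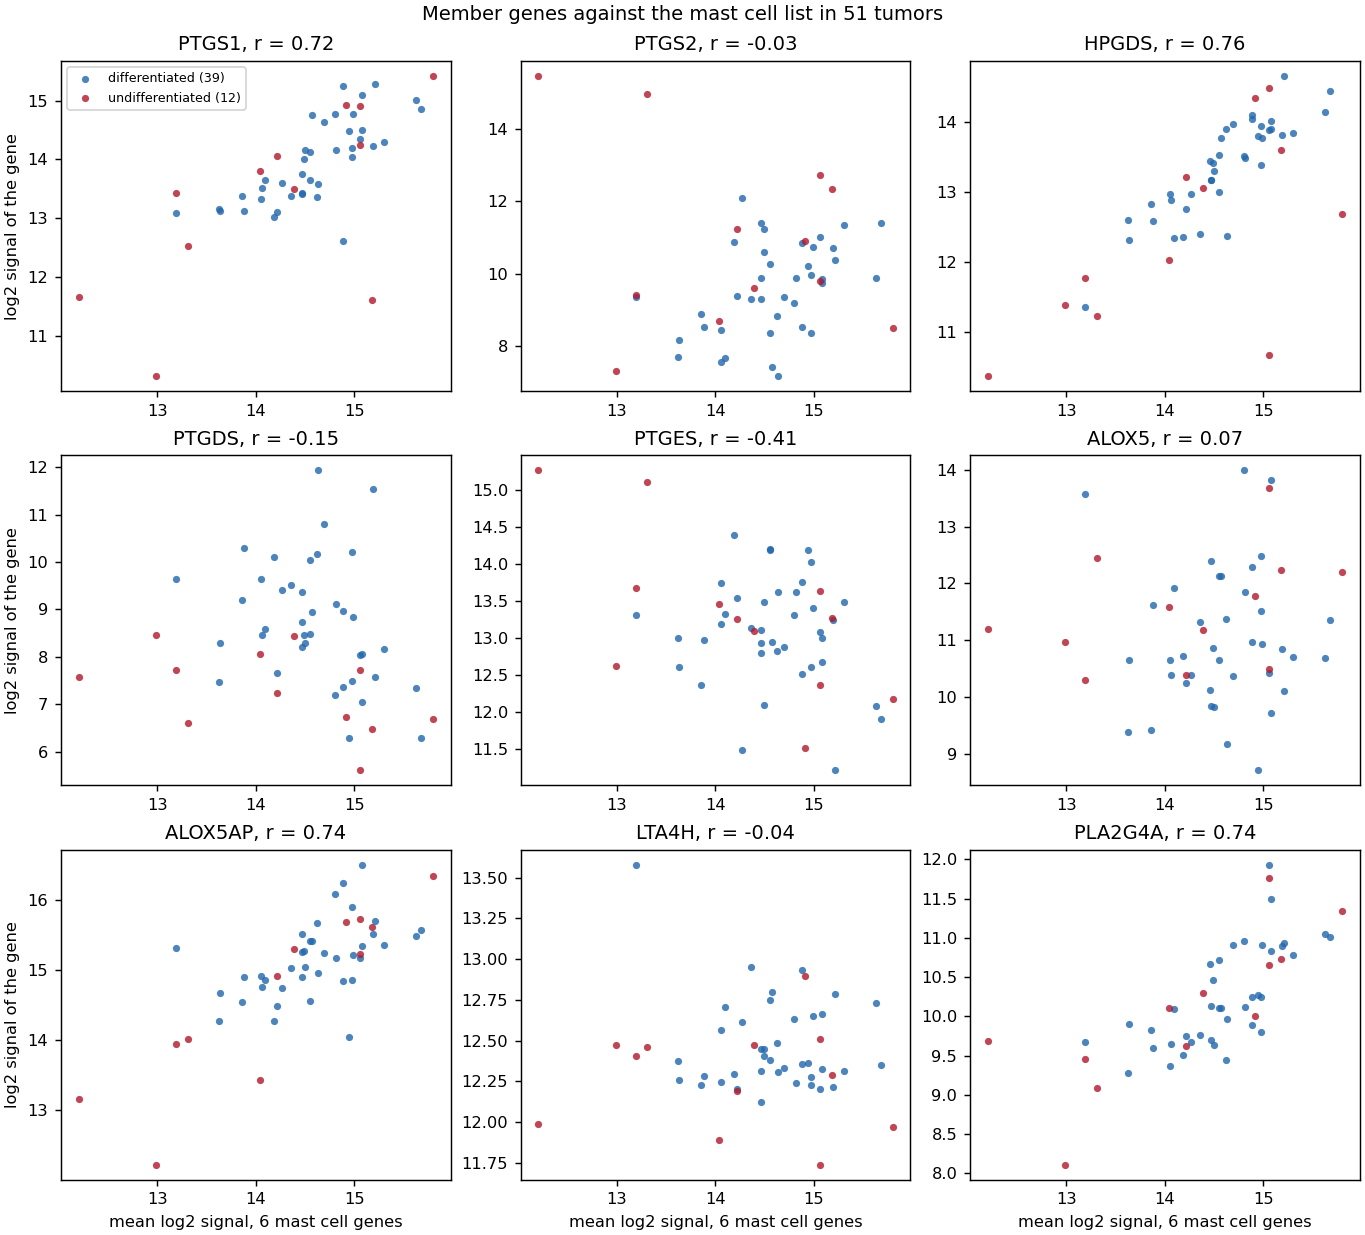
Level of each enzyme gene (vertical axes, log2) against the mean of the 6 mast cell markers (horizontal axes, log2), 1 point per tumor and the classes in different colors. HPGDS, PTGS1, ALOX5AP and PLA2G4A rise along the axis (r = 0.76, 0.72, 0.74 and 0.74), PTGDS and LTA4H have r of -0.15 and -0.04, and the 2 tumors highest in PTGS2 and PTGES lie toward the left.

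Neutrophil markers moved with the classes too, with 4 of 5 on the array called higher, beside 1.32% of all probes. S100A8 and S100A9 were up by log2 fold changes of 4.03 and 4.36. The mean of the 4 called genes was 11.04 ± 2.04 (7.02 to 14.23) in undifferentiated and 7.82 ± 1.27 (5.87 to 11.76) in differentiated MCTs, and ELANE was well above background on 14 of 51 arrays. HPGDS correlated with this mean (r = -0.46, rho = -0.42, adjusted permutation p = 0.00882 and 0.0156), as did PLA2G4A (r = -0.38), PTGS1 (r = -0.40) and PTGS2 (r = 0.34, but rho = 0.00). None of the 9 relations passed without the 2 most extreme tumors or within either class. With the neutrophil mean as a covariate, also chosen after seeing the data, PTGDS differed by -1.86 (adjusted p = 0.0274), PTGS2 by 0.73 (adjusted p = 0.586) and HPGDS by -0.41 (adjusted p = 0.566 in limma). Because this mean itself differed between the classes, 11.04 against 7.82, the fit also removes class difference. The part of neutrophils in the enzyme levels was not tested.

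Among the 36 pairs of enzyme genes, 9 correlated at an adjusted permutation p under 0.05 over the 51 tumors, 7 of them positively. The share of all probe pairs that would pass was not computed, so the count is not shown to be particular to these enzymes. PTGS1, HPGDS, ALOX5AP and PLA2G4A formed 6 of the 7, with PTGS1 and PLA2G4A the closest (r = 0.67, rho = 0.73), then ALOX5AP with PLA2G4A (r = 0.64), HPGDS with ALOX5AP (r = 0.63), PTGS1 with ALOX5AP (r = 0.59), PTGS1 with HPGDS (r = 0.57) and HPGDS with PLA2G4A (r = 0.55). The seventh was ALOX5 with ALOX5AP, the 2 partners of leukotriene A synthesis (r = 0.38, rho = 0.42, adjusted permutation p = 0.0226). The negative pairs were PTGES with HPGDS (r = -0.50, rho = -0.41, adjusted permutation p = 0.00082) and PTGES with ALOX5AP (r = -0.43, rho = -0.48, adjusted permutation p = 0.009). Without the 2 most extreme tumors of the first gene, the 6 pairs kept r between 0.54 and 0.69 and PTGES with HPGDS was at -0.40, whereas ALOX5 with ALOX5AP and PTGES with ALOX5AP passed by rho but not by r.

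Within the 39 differentiated MCTs 7 of 36 pairs passed, again with no share over all probe pairs computed. ALOX5 and ALOX5AP were closer there (r = 0.67, rho = 0.55), PTGS1 with HPGDS and with PLA2G4A had r of 0.73 and 0.72, and the PTGES pairs were not among them. In the 6 larger scan sessions ALOX5 and ALOX5AP correlated positively in 6 of 6, with a median r of 0.42, PTGS1 and PLA2G4A in 6 of 6, with a median of 0.84, and PTGES and ALOX5AP negatively in 6 of 6, with a median of -0.50. The weakest r of these pairs within a session was 0.10, 0.30 and -0.04. PTGDS and HPGDS, the 2 routes to prostaglandin D, had r within sessions between -0.31 and 0.35. PTGS2 and PLA2G4A are next to each other on their chromosome in the RefSeq gene order of the dog (assembly UU_Cfam_GSD_1.0), and had r = 0.14.

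**Figure D5:**
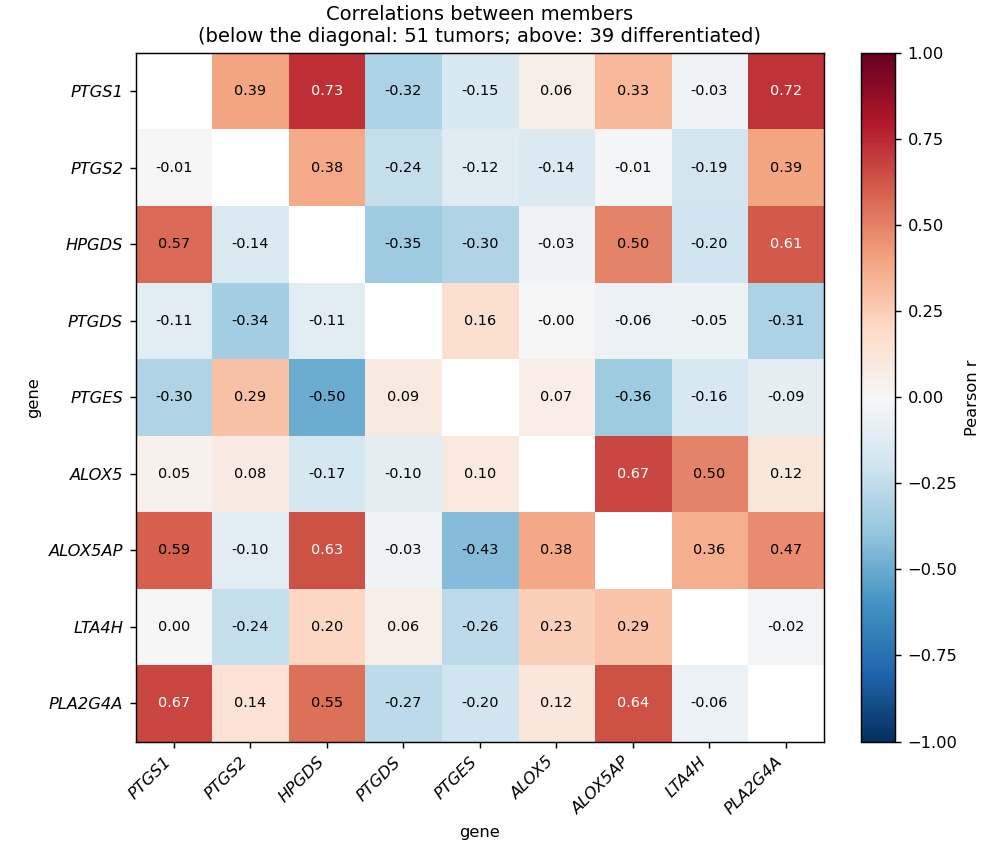
Pearson r for each pair of the 9 enzyme genes, over the 51 tumors below the diagonal and over the 39 differentiated MCTs above it. PTGS1, HPGDS, ALOX5AP and PLA2G4A form a positive block with r from 0.55 to 0.67 over all tumors, and PTGES is negative with HPGDS and ALOX5AP, at -0.50 and -0.43.

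For each enzyme the 3 genes with the most similar pattern over the 51 arrays are given as a description. HPGDS was closest to FAM184A (r = 0.89), UPRT (r = 0.85) and SMARCAD1 (r = 0.84), the last its neighbor in gene order. PTGDS was closest to FBLN5, an elastic fiber protein (r = 0.77), APOE, a lipid carrier (r = 0.70), and RUNX1T1 (r = 0.68). PTGS2 was closest to CREM (r = 0.76), ZFAND5 (r = 0.73) and NAMPT (r = 0.72), values that were 0.47, 0.33 and 0.34 in the 39 differentiated MCTs. For PTGES the 3 were RRAS2 (r = 0.81), CACNB3 (r = 0.80) and PEA15 (r = 0.77), and for PTGS1 they were SLC30A2 (r = 0.76), SPOP and GRAP2 (both r = 0.75). ALOX5 was closest to HAAO (r = 0.74), SAMSN1 and IL4R, the interleukin 4 receptor (both r = 0.71), and ALOX5AP to MEIS2 (r = 0.79), MAG (r = 0.78) and ARRB2 (r = 0.77). PLA2G4A was closest to IPO11 (r = 0.81), MED7 (r = 0.80) and KRIT1 (r = 0.78), and LTA4H to ITSN2 (r = 0.71), AFTPH (r = 0.68) and FAU (r = 0.67).

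Of 50 other genes of the eicosanoid pathway (receptors, further synthases, lipoxygenases, phospholipases, breakdown and transport) 31 had a probe. In the class comparison 1 was called higher and 1 lower, beside 1.32% and 1.09% of all probes. Of the 31 genes, 22 had a lower mean, and the median log2 fold change was -0.11, beside -0.01 over all probes. Several of the 22 were near 0, and the share of all probes with a lower mean was not computed. PTGR1, which reduces prostaglandins and inactivates leukotriene B, was higher in undifferentiated MCTs, where it averaged 11.75 ± 0.70 (SD) in the 12 tumors, than in the 39 differentiated ones, which averaged 10.70 ± 0.48 (SD). Its log2 fold change was 1.05 (SE 0.18, adjusted p = 1.97e-05 in limma), and it was 0.86 (adjusted p = 0.0965) among the reference and 1.17 (adjusted p = 0.000913) among the predicted tumors. PTGER2, a receptor of prostaglandin E, was lower, with a log2 fold change of -1.18 (SE 0.32, adjusted p = 0.00694) over all tumors and -1.60 (SE 0.34, adjusted p = 0.00853) among the reference tumors, but -0.89 (adjusted p = 0.288) among the predicted ones. It was well above background in 8 of 12 undifferentiated and 39 of 39 differentiated MCTs. Receptors with a probe numbered 6 of 14. All 6 had a lower mean, but PTGER1, PTGDR2 and PTGER4 were only at -0.01, -0.05 and -0.07, beside a median of -0.01 over all probes. Among the reference tumors PTGER1 and PTGDR2 were higher, at 0.16 and 0.09. PTGER3 followed PTGER2 at -1.14 (adjusted p = 0.0118), with -0.69 (adjusted p = 0.411) among the reference and -1.47 (adjusted p = 0.0367) among the predicted tumors. None of the leukotriene receptors on the list had a probe.

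Sex, breed and age were tested beside class. Between 30 female and 19 male dogs 0 of 9 genes were called in limma, as were 0.0275% of all probes, 0 of 9 passed an adjusted p of 0.05, as 0.0642% of all probes did, and 0 of 9 had an unadjusted p under 0.05, beside 4.38% of them. Over 49 dogs with a labeled age 0 of 9 genes passed, as did 0% of all probes, again with 0 of 9 at an unadjusted p under 0.05, beside 2.26% of them, and PTGS2 had the lowest unadjusted p (0.084), with a slope of 0.16 per year on the log2 scale. Between 9 Boxers and 9 Labrador Retrievers 0 of 9 were called in limma, against 0.0459% of all probes, and 1 of 9 had an unadjusted p under 0.05, beside 5.65% of them. This was PTGS1, at 13.26 ± 0.78 (SD, n = 9) in Boxers and 14.22 ± 0.66 (SD, n = 9) in Labrador Retrievers, a log2 fold change of -0.96 (SE 0.32, adjusted p = 0.632 in limma), with 1 of 9 Boxers above the Labrador median.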

How the data were processed

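RNA of 51 tumors was hybridized, 1 per array, and scanner images were read by the authors in Feature Extraction 9.5.1 (Agilent), which subtracted the background and detrended the signal within each array. The processed signal was deposited as a linear intensity per spot, not normalized between arrays, with the scanner's spot flags beside it. The intensity values in the table deposited for the whole series, already quantile-normalized by the authors, served as an alternative.

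Here log2 processed signals were quantile-normalized over the 51 arrays, outlier spots were set missing, control spots were left out and spots of a probe averaged, leaving 43603 probes. Groups were compared with limma 3.58.1 (R 4.3.3) over all probes with Benjamini-Hochberg adjustment, and a called gene had at least a 2-fold change with an adjusted p below 0.01, the limits of the study's methods. SAM, the test named there, was not run, and the methods' t-test was an alternative. Random blocks used statmod 1.5.0. Correlations used two-sided tests of 100000 permutations (Python 3.11.15, numpy 2.4.6, scipy 1.17.1, pandas 2.3.3), adjusted over 9 genes or 36 pairs. Figures were drawn with matplotlib 3.10.9. The steps were tested on simulated data.

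Named genes were all members, the 3 genes most correlated with each among probes well above background on at least 26 arrays, and, of the other pathway genes, the 3 with the lowest adjusted p in the class comparison, since fewer than 3 were called. The members and the lists were chosen with earlier results of these data known. Cell type markers and pathway genes were written from general knowledge, and the mean of a marker list took its genes well above background on at least 26 arrays. Old gene names were updated through the RefSeq gene table, which renamed 2519 probes by gene identifier, 138 by accession and 107 by synonym. Alternatives were scaling to the 75th percentile, normexp background correction with an offset of 50, outlier spots kept, dim probes left out, slide or scan session as a block, sex or cohort as a covariate, the mean over a gene's probes, a looser threshold and leaving out each tumor. Other marker list means as covariates or correlates were added after seeing the data. Histological grade, survival and qPCR were not analysed here.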

Additional observations from a re-analysis of the deposited data

Results flagged for a closer look

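In 6 of 36 groups of 5 to 9 tumors (9 genes in 4 groups), 1 tumor stood so far from the nearest other that its gap passed Dixon's 95% limit. Among independent groups chance alone passes it in about 1 of 20, but these groups share tumors and correlated genes. The count of 6 can therefore not be set against that share. The Boxer and Labrador Retriever groups also mixed tumors of both classes. T114, an undifferentiated Boxer tumor of the predicted set, gave 4 of the 6. Its PTGS2 of 15.48 was far above and its HPGDS of 10.37 far below the other Boxers, and its PTGES of 15.26 was far above both the other Boxers and the other undifferentiated tumors of the predicted set. T73, an undifferentiated Labrador Retriever tumor of the reference set, had a PTGES of 11.52, far below the other Labrador Retrievers. T12, a Boxer tumor, had a PLA2G4A of 11.93, far above the other Boxers.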

How the results depend on the processing

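Of the 9 genes, 1 was called in the class comparison. The count was 0 under normexp background correction, with sex as a covariate (49 arrays) and with the neutrophil mean as a covariate, 2 at an adjusted p under 0.05 with no fold limit, and 0 to 1 when each tumor was left out, being 0 without 5 of the 51. Without T9 or T73 the 1 called gene was HPGDS and PTGDS was not called. PTGDS kept its direction under all 13 alternatives, with log2 fold changes of -1.86 to -1.06 and adjusted p of 0.00182 to 0.0348, and passed both thresholds in 10. In the reference comparison the count of 0 became 1 at an adjusted p under 0.05 and stayed at 0 to 0 with each tumor left out, and with slide as a fixed block PTGDS was at -3.23 (adjusted p = 0.182). In the predicted comparison the count of 0 became 1 at an adjusted p under 0.05 and was 0 to 1 with each tumor left out. The count of members whose class difference differed between cohorts was 0 under both scalings.

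Changes of sign arose for differences that passed no threshold. With the neutrophil mean as a covariate PTGS1 was at 0.0792 and PLA2G4A at 0.50 in the class comparison, HPGDS at 0.50, ALOX5AP at 0.20 and LTA4H at 0.0137 in the reference comparison, and PLA2G4A at 0.0299 in the predicted comparison. With the mast cell mean PLA2G4A was at 0.13 in the class comparison. With slide as a fixed block HPGDS was at 0.31, ALOX5AP at 0.98 and LTA4H at 0.13 in the reference comparison and PLA2G4A at 0.0373 in the predicted one. With scan session as a fixed block HPGDS was at 0.00787, ALOX5AP at 0.60 and LTA4H at 0.0357 in the reference comparison, and ALOX5AP was at 0.0332 with slide as a random block. Scaling to the 75th percentile gave 0.0038 for PTGES, 0.091 for ALOX5AP and 0.0429 for LTA4H there. With each tumor left out the reference ranges were -0.66 to 0.16 for HPGDS, -0.73 to 0.16 for PTGES, -0.39 to 0.34 for ALOX5AP and -0.23 to 0.0193 for LTA4H, the class range was -0.32 to 0.00986 for PLA2G4A and the predicted range -0.13 to 0.44 for ALOX5. The causes were not tested.

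In the 12 undifferentiated MCTs 5 of 9 genes correlated with the mast cell mean, 2 without the 2 most extreme tumors and 3 after scaling to the 75th percentile, while the count was 5 under each in all tumors. Of the 36 pairs in the 39 differentiated MCTs 7 passed, and 11 under each of these alternatives.

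Probes called over the whole array numbered 1049, 805 and 437 in the class, reference and predicted comparisons, 425, 416 and 220 under normexp, 6401, 3520 and 2556 at an adjusted p under 0.05, and 452, 1342 and 4 with the neutrophil mean. Reference and predicted counts were 54 and 85 with slide as a fixed block and 345 and 170 with scan session, and the predicted count was 270 with the mast cell mean and 212 without T114.

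No paired analysis was possible because the replicate numbers only follow the order of the samples and pair none of them. Few undifferentiated tumors, 5 and 7, limit the separate comparisons, bulk RNA mixes cell types, and the deposited signals carry no read depth.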

Other observations

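Macrophage and fibroblast markers were also set against the enzymes, after seeing the data. PTGES correlated with the mean of 7 macrophage markers (r = 0.39, rho = 0.50, adjusted permutation p = 0.0446 and 0.0027 over 9 genes), where without the 2 most extreme tumors r = 0.32 did not pass (adjusted permutation p = 0.229) and rho = 0.45 did (0.0123). The values were higher in the 39 differentiated MCTs (r = 0.65, rho = 0.68, adjusted permutation p = 0.00027 and 9e-05), where without the 2 most extreme tumors r was 0.61. With the fibroblast mean PTGES had r = 0.46 (rho = 0.49, adjusted permutation p = 0.0064 and 0.0036), and r = 0.44 without the 2 most extreme tumors. Within the classes r was 0.35 in the 39 differentiated MCTs (rho = 0.42, adjusted permutation p = 0.057 and 0.0779), not past the threshold, and 0.78 in the 12 undifferentiated ones (rho = 0.76, adjusted permutation p = 0.0226 and 0.0518). LTA4H correlated negatively with the fibroblast mean (r = -0.37, rho = -0.31), not past the threshold without those tumors. Of 8 macrophage markers 3 had a higher and 5 a lower mean in undifferentiated MCTs. C1QA was called lower, beside 1.09% of all probes, and CSF1R was at -0.95 (adjusted p = 0.0128 in limma). MARCO went the other way, at 2.24 (adjusted p = 0.0218 in limma). It was well above background on 25 arrays and so was not in the macrophage mean. That mean was 10.40 ± 0.57 in undifferentiated MCTs against 10.86 ± 0.75 in differentiated ones. The T cell, keratinocyte, endothelium, adipocyte and eosinophil lists had 4, 5, 5, 3 and 2 markers on the array, with median log2 fold changes between the classes of -0.29, 0.76, -0.06, -0.05 and -0.56. No marker of these lists passed an adjusted p of 0.05 in limma, beside 14.7% of all probes. The keratinocyte mean varied widely, from 1.76 to 15.27 in differentiated and from 1.87 to 15.50 in undifferentiated MCTs.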
